A study of Homo sapiens with 8 samples.

Results

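Cells carry receptors that recognise DNA or RNA in the cytosol, where either can mark infection or damage. CGAS binds double-stranded DNA and makes a cyclic dinucleotide that activates STING1, and STING1 recruits the kinase TBK1, which phosphorylates the transcription factor IRF3 to switch on interferon genes. RIGI and IFIH1 detect RNA and signal through MAVS on mitochondria to the same kinase, AIM2 assembles an inflammasome on DNA, and the exonuclease TREX1 degrades cytosolic DNA. Several of these sensors are themselves induced by interferon.

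The messenger RNAs of these 10 genes were followed in Saos-2, an established human osteosarcoma line that the labels call p53-null. Untreated cells (3 arrays, replicates 1, 2 and 3) were set beside cells given a compound labelled Prima for 6 h (3 arrays, replicates 1, 2 and 3) or for 12 h (2 arrays, replicates 1 and 3). All samples are of the 1 line, and neither dose nor vehicle is given in the labels. Values are MAS5 signals on a linear scale from Affymetrix arrays, where a probe set is a group of probes for 1 transcript region. Signals of different probe sets were not compared with each other, because each binds with its own efficiency.

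The 10 genes were chosen by name, with earlier results of these data in view in which AIM2 stood among the low genes at 12 h. A probe set counted as a member when the platform annotation gave it that 1 gene alone. This gave 21 probe sets of 9 genes, out of 54675 probe sets in the table and 19775 genes with a probe set of their own. TREX1 had none of its own, since its 3 probe sets are shared with ATRIP. Because AIM2's low values at 12 h were known, differences that involve the 12 h arrays are descriptions here and carry no p-value.

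The arrays numbered 2 stood apart from the rest. Their median signals were 50.9 (untreated) and 47.5 (6 h), against 14.2 to 24.95 on the 6 other arrays, and there is no 12 h array with that number. An untreated or 6 h mean therefore includes an array of this kind and a 12 h mean does not. Members moved either way on these arrays, with AIM2 and IFIH1 high and both STING1 probe sets and MAVS 231829_at lowest on untreated replicate 2. For this reason the larger differences are also given within same-numbered arrays or without the arrays numbered 2. The ratio of the 3′ to the 5′ ACTB control probe set, which rises as RNA degrades, was highest at 12 h replicate 1 (2.29), then 6 h replicate 1 (1.73), and between 1.125 and 1.38 elsewhere. For GAPDH the same ratio ran from 0.927 to 1.038, with 1.038 also on 12 h replicate 1. Of 12 osteoblast lineage markers 10 had a probe set of their own, and all 10 passed the filter described next. RUNX2 had signals from 1411 to 2350, and medians of the 10 ran from 23.9 (PTH1R) to 3648 (COL1A1). Of 9 myeloid markers, which mark cells where AIM2 and IFI16 are abundant, 8 had a probe set and 4 passed. Their summed signal ran from 71.55 to 440.2 in untreated cells, 106.1 to 337.1 at 6 h and 75.65 to 145.0 at 12 h. In untreated and 6 h cells the highest value was on the array numbered 2. Medians of single myeloid markers ran from 3.12 (CD14) to 33.1 (FCER1G).

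A probe set was tested when its mean log2 signal exceeded the median of all probe sets, after raising lower signals to a floor of 2.385, their 10th percentile over the table. Of the 21 member probe sets 17 passed, from 8 genes. IFIH1, with 3 probe sets, and 1 of the 3 CGAS probe sets did not. With limma's test and Benjamini-Hochberg adjustment, 0 of the 17 passed at an adjusted p of 0.05 in 6 h against untreated. Of all 27306 probe sets 0% passed in this comparison, and likewise 0% in 12 h against untreated and in 12 h against 6 h, from which nothing is read about the members. At an unadjusted p under 0.05 stood 172, 221 and 243 of the 27306.

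The promoters of AIM2 and IFIH1 are printed because they are the members whose start regions hold the core of the interferon-stimulated response element, the DNA element that interferon-activated factors bind, and because AIM2 is the member with the largest difference at 12 h. The sequences are from RefSeq on GRCh38.p14 and run 5′ to 3′ on the gene's strand, from 250 bases before the start to 50 after it, with matches to the core (GAAA, any 2 bases, GAAA) on either strand in capitals.

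AIM2 (chr1:159076717-159077016, minus strand): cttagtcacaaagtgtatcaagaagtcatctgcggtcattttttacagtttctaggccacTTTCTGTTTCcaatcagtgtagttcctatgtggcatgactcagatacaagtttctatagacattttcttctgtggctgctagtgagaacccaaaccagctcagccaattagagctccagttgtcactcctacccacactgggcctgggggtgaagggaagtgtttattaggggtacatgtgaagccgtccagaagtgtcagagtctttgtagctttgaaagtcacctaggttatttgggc
IFIH1 (chr2:162318635-162318934, minus strand): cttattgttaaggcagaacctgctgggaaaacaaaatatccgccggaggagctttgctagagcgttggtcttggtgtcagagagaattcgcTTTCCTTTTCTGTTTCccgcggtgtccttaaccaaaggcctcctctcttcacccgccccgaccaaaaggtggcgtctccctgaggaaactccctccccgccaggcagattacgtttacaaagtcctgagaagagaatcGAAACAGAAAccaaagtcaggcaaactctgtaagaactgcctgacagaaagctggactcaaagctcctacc

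In AIM2 the 1 match begins 190 bases before the start and lies on the opposite strand. In IFIH1 there are 3, of which the matches that begin 159 and 153 bases before the start overlap on the opposite strand, and the last begins 21 bases before it on the gene's own strand. Of the 10 genes, 7 had an entry in the promoter table, with 8 entries in all since IFI16 had 2, and 2 genes held the core. It occurs in 3.57% of the 35116 promoters in the table. The GAS element TTCNNNGAA, bound by STAT factors, was in none of the 8 entries and is in 7.66% of all promoters, and the GC box GGGCGG was in those of 3 genes (IFIH1, MAVS and RIGI) and is in 45.0% of all. A match is a string of letters and does not show that a factor binds there.

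Among the DNA sensors, AIM2 and CGAS were lower at 12 h than in untreated cells, while the 3 IFI16 probe sets differed by -0.49 to 0.01 on the log2 scale. AIM2 averaged 57.6 ± 42.4 (SD, n = 3) in untreated cells, 51.8 ± 51.15 (n = 3) at 6 h and 8.73 ± 8.06 (n = 2) at 12 h. The 2 CGAS probe sets that passed the filter averaged 113 ± 18.8 and 79.6 ± 13.1 (n = 3) in untreated cells and 35.9 ± 5.40 and 34.5 ± 37.7 (n = 2) at 12 h.

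**Figure D1:**
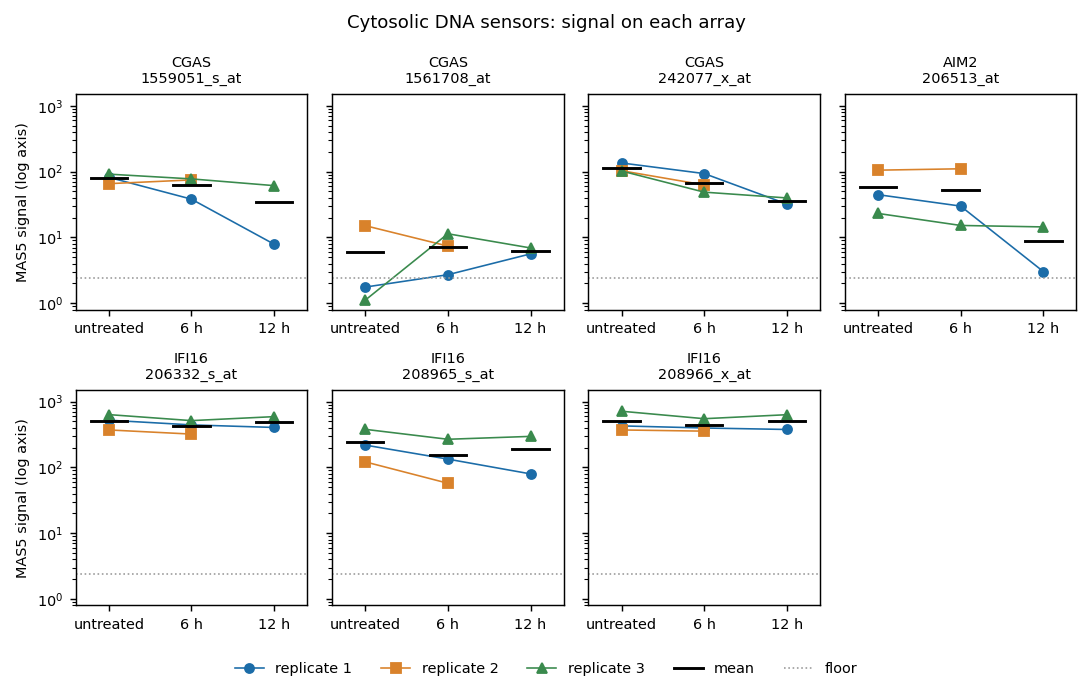
MAS5 signal (log axis) of the 7 probe sets of CGAS, AIM2 and IFI16 on each array, with untreated, 6 h and 12 h on the x axis. Coloured lines join arrays of the same number, black bars are group means and the dotted line is the floor of 2.385. CGAS 242077_x_at steps down from untreated to 6 h to 12 h with no overlap, and AIM2 and CGAS 1559051_s_at have their lowest points on 12 h replicate 1, at 3.03 and 7.88.

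AIM2, a PYHIN family protein that nucleates the inflammasome, has 1 probe set (206513_at). Its signals were 44.6, 105 and 23.1 on untreated replicates 1, 2 and 3, and 29.9, 110.2 and 15.2 on the 6 h arrays in the same order. On 12 h replicates 1 and 3 they were 3.03 and 14.4. Both 12 h arrays were thus below every untreated and every 6 h array, while untreated and 6 h arrays overlapped and kept 1 order of replicate numbers, with number 2 highest and number 3 lowest. The log2 difference was -2.85 ± 1.04 (SE) for 12 h minus untreated, -2.48 ± 1.04 for 12 h minus 6 h and -0.37 ± 0.93 for 6 h minus untreated.

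The size of the AIM2 difference varied with the array. Within number 1 the signal went from 44.6 to 29.9 to 3.03, a log2 step of -3.88 from untreated to 12 h. Within number 3 it went from 23.1 to 15.2 to 14.4, a step of -0.68, and the 6 h and 12 h values there differed by -0.07 on the log2 scale. Without the arrays numbered 2 the difference from untreated was -2.28, with the replicate number as a block it was -2.17, and leaving out 12 h replicate 1, where the ACTB ratio was 2.29, gave -1.72. Leaving out 12 h replicate 3 instead gave -3.98. The part of RNA integrity in these differences was not tested. The myeloid sum went from 144 to 145.0 between untreated and 12 h within number 1, and from 71.55 to 75.65 within number 3. It was highest on the arrays numbered 2 (440.2 untreated, 337.1 at 6 h), which also had the highest median signals. The part of cell composition in the AIM2 differences was not tested either. In bulk RNA, fewer cells with a transcript and less of it per cell cannot be told apart.

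Genes with a pattern like that of AIM2 shared its rise on the arrays numbered 2. Over the 8 arrays, the highest Pearson correlations of log2 signal among 12062 genes, each by its brightest probe set, were those of PRAMEF11 (0.985), LOC105379426 (0.983), IRF2BP1 (0.978), RAB11B (0.968) and PDE8B (0.966). RAB11B, a small GTPase of recycling endosomes, had signals of 34.5, 96.7 and 21.7 in untreated cells, 23.0, 90.0 and 27.1 at 6 h and 1.79 and 17.7 at 12 h. The arrays share 3 replicate numbers, so these points are not independent. Of the other members that passed the filter, each by its brightest probe set, CGAS stood nearest (0.691, place 735) and MAVS farthest (-0.633). IFIH1 did not pass and was not ranked. MAVS was ranked by 220305_at alone, with which MAVS 229741_at correlated at -0.573.

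CGAS, the cyclic GMP-AMP synthase, has 3 probe sets, and 2 of them stepped down. On 242077_x_at the signals were 135, 103 and 102 in untreated replicates 1, 2 and 3, then 93.2, 62.65 and 48.7 at 6 h, and 32.1 and 39.8 on 12 h replicates 1 and 3. Every untreated array lay above every 6 h array and every 6 h array above every 12 h array, an order found in 0.0366% of the 27306 probe sets tested (10 in number) and singled out here after its values were seen. The log2 difference was -1.65 ± 0.45 (SE) for 12 h minus untreated and -0.88 ± 0.45 for 12 h minus 6 h. For 6 h minus untreated it was -0.77 ± 0.40 (95% interval -1.64 to 0.09, limma adjusted p = 1.0).

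This CGAS probe set kept its direction in the 21 alternatives that were fitted on single probe sets, with 12 h minus untreated between -1.81 and -1.07. Several of these could not move it, since they change only the filter, the variance trend or arrays outside the comparison. The mean over all 3 CGAS probe sets, the remaining alternative, gave -0.999 at 12 h and -0.23 at 6 h. The value of -1.07 came from centring each array on its median, under which the median difference over all tested probe sets at 12 h is 0.585 in place of 0.004. For 12 h minus 6 h that centring gave -0.29 and quantile normalization -0.40. Within same-numbered arrays the step from untreated to 12 h was -2.07 in number 1 and -1.36 in number 3, and without the arrays numbered 2 the difference was -1.715. Affymetrix gives the suffix x to probe sets whose probes may also bind other transcripts, so the identity of this signal is less certain. The same holds for IFI16 208966_x_at and RIGI 242961_x_at.

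The second CGAS probe set, 1559051_s_at, gave signals of 81.8, 65.5 and 91.4 in untreated cells, 38.1, 74.7 and 77.4 at 6 h and 7.88 and 61.1 at 12 h. Both 12 h arrays were below every untreated array, but 6 h and 12 h arrays overlapped. Its log2 difference for 12 h minus untreated was -1.84 ± 0.74 (SE), and that rests on 12 h replicate 1, since without that array it was -0.37, and without 12 h replicate 3 it was -3.32. For 12 h minus 6 h it was -1.46 ± 0.74, and 0.02 without that array. For 6 h minus untreated it was -0.385 ± 0.66 (limma adjusted p = 1.0).

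The last CGAS probe set, 1561708_at, was too dim to test. It had signals of 1.76, 15.1 and 1.11 in untreated cells, 2.71, 7.38 and 11.4 at 6 h and 5.62 and 6.92 at 12 h. These lie near the floor and do not follow the others, with a correlation over the 8 arrays of -0.433 with 242077_x_at and of -0.002 with 1559051_s_at, which correlated with each other at 0.583.

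Counts of arrays that do not overlap put these in context. For 12 h against untreated, every 12 h array lay below every untreated array in 3 of the 17 tested member probe sets, the AIM2 probe set and 2 of CGAS, and this held for 6.54% of all probe sets tested. In the opposite direction the count was 0 of 17, with a background of 7.57%. For 12 h against 6 h, 2 of 17 were lower without overlap (background 6.38%) and 0 higher (5.46%), the AIM2 and 242077_x_at probe sets. For 6 h against untreated, 1 of 17 was lower (1.63%), again 242077_x_at, and 0 higher (1.96%). Nothing is read from the counts with 12 h arrays, for which AIM2 was known beforehand.

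IFI16, a nuclear and cytosolic PYHIN protein that lies next to AIM2 on chromosome 1 with 0 protein-coding genes between them, has 3 probe sets. On 206332_s_at the signals were 520, 370.0 and 632.5 in untreated cells, 441, 320 and 512.5 at 6 h and 404 and 589 at 12 h. On 208965_s_at they were 218, 121 and 378 in untreated cells, 133, 57.3 and 267 at 6 h and 79.5 and 295 at 12 h. On 208966_x_at they were 426, 370 and 711 in untreated cells, 396, 355 and 548 at 6 h and 376 and 630.4 at 12 h. The groups overlapped on each probe set, and the replicate numbers kept 1 order throughout, number 3 highest and number 2 lowest, with no 12 h array to follow number 2.

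Within same-numbered arrays IFI16 was lower after treatment each time. At 6 h all 9 values (3 probe sets in 3 pairs) were below 0, from -1.08 to -0.06 on the log2 scale, and at 12 h all 6 were, from -1.45 to -0.10. The 3 probe sets measure the same RNA samples and correlated at 0.90 to 0.955 over the 8 arrays, so they are not independent. Without pairing, the 6 h differences were -0.25 ± 0.29, -0.76 ± 0.60 and -0.18 ± 0.32 (SE, in the order above, limma adjusted p = 1.0 for each). At 12 h they were -0.02 ± 0.33, -0.49 ± 0.67 and 0.01 ± 0.35, and with the replicate block they were -0.22, -0.98 and -0.15. Centring each array on its median turned the unpaired 12 h values to 0.56, 0.09 and 0.595, a setting under which all tested probe sets shift as given for CGAS. From 6 h to 12 h, 3 of 6 pair values were below 0.

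Directions within pairs, looked at after the IFI16 values were seen, are common across the table. Of the 17 tested member probe sets 4 were lower in all 3 pairs at 6 h (background 11.3%), namely those of IFI16 and CGAS 242077_x_at, and 3 were higher (13.2%), namely STING1 224916_at and 2 of MAVS. At 12 h, 7 were lower in both pairs (28.0%), made up of AIM2, 2 of CGAS, 3 of IFI16 and RIGI 222793_at, and 1 was higher (28.6%), MAVS 229741_at. Both times share the untreated arrays.

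STING1, the endoplasmic reticulum adaptor that CGAS activates, has 2 probe sets, with log2 differences near or above 0 at 12 h. On 224916_at the signals were 25.8, 7.62 and 7.90 in untreated cells, 38.0, 64.5 and 13.3 at 6 h and 25.0 and 16.6 at 12 h. The 6 h value was above the untreated one in all 3 pairs, by 0.56, 3.08 and 0.75 on the log2 scale, with the largest step in number 2. The difference for 6 h was 1.46 ± 0.93 (SE, 95% interval -0.55 to 3.48, limma adjusted p = 1.0), and 0.65 without the arrays numbered 2. At 12 h it was 0.82 ± 1.04.

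On the other STING1 probe set, 224929_at, the signals were 60.5, 19.0 and 22.6 in untreated cells, 39.0, 46.1 and 25.9 at 6 h and 59.25 and 28.0 at 12 h. The groups overlapped fully, and replicate 1 was high in untreated and 12 h cells. The difference was 0.28 ± 0.64 at 6 h (limma adjusted p = 1.0) and 0.46 ± 0.715 at 12 h, and without the arrays numbered 2 it was -0.22 and 0.14. The 12 h value was also -0.08 without 12 h replicate 1 and -0.10 with array weights, and within number 1 both STING1 probe sets were close to 0 at 12 h, at -0.04 and -0.03. Both probe sets correlated at 0.783 over the 8 arrays.

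The RIG-I-like RNA sensors had no direction common to their probe sets. RIGI, the helicase that detects RNA with a 5′ triphosphate, has 3 probe sets, all highest on 6 h replicate 1. On 222793_at the signals were 38.6, 65.7 and 42.0 in untreated cells, 96.1, 34.7 and 61.8 at 6 h and 29.25 and 41.6 at 12 h. On 218943_s_at they were 26.9, 36.1 and 37.5, then 55.2, 14.9 and 28.8, then 40.5 and 27.9. On 242961_x_at they were 71.3, 65.2 and 19.3, then 92.0, 18.1 and 42.3, then 69.9 and 46.8. On each probe set 6 h replicate 1 was high and 6 h replicate 2 low, so the 6 h arrays spread around the untreated ones.

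Differences of RIGI were small against that spread. At 6 h they were 0.32 ± 0.52, -0.21 ± 0.65 and -0.12 ± 0.675 (SE, in the order above, limma adjusted p = 1.0 for each), and 0.94, 0.33 and 0.75 without the arrays numbered 2. At 12 h they were -0.44 ± 0.58, 0.02 ± 0.72 and 0.35 ± 0.755. The 3 probe sets correlated at 0.407 to 0.625 over the 8 arrays. The ACTB ratio of 6 h replicate 1 was 1.73, and the summed signal of 5 epithelial markers was also highest there, at 2295 against 538 to 977 on the other arrays. Their part in the high RIGI values was not tested.

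**Figure D2:**
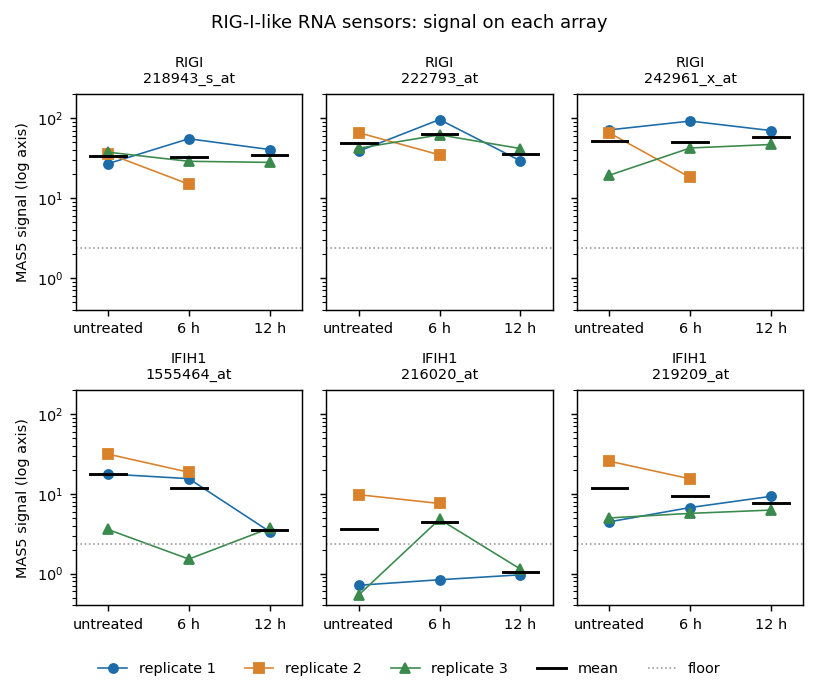
MAS5 signal (log axis) of the 3 RIGI and 3 IFIH1 probe sets on each array, by time. Coloured lines join arrays of the same number, black bars are group means and the dotted line is the floor of 2.385. RIGI is highest on 6 h replicate 1 on each of its probe sets, and IFIH1 is highest on untreated replicate 2 on each of its own.

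IFIH1, also called MDA5, which detects long double-stranded RNA, was dim on all its 3 probe sets, and none was tested. On 219209_at the signals were 4.46, 25.6 and 4.99 in untreated cells, 6.73, 15.4 and 5.69 at 6 h and 9.30 and 6.26 at 12 h. On 1555464_at they were 17.7, 31.4 and 3.57 in untreated cells, 15.5, 18.6 and 1.52 at 6 h and 3.36 and 3.71 at 12 h. On 216020_at 5 of 8 arrays were at or under the floor, and the highest signal was 9.75. Each was highest on untreated replicate 2, and leaving out the arrays numbered 2 turned the log2 difference of 219209_at from -0.12 to 0.69 at 12 h. On 1555464_at the 12 h difference was -1.83, and -1.17 without the arrays numbered 2, made up of -2.40 within number 1 and 0.05 within number 3. On 216020_at the 12 h difference was -0.68, and 0.0 without the arrays numbered 2. With all arrays the IFIH1 probe sets were thus all below 0 at 12 h. Without the arrays numbered 2 they had no common direction.

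MAVS, the mitochondrial adaptor of RIGI and IFIH1, has 4 probe sets, which disagreed with each other. On 220305_at the signals were 184, 99.2 and 229 in untreated cells, 135, 193 and 228 at 6 h and 234 and 226 at 12 h. On 226495_at they were 113, 90.9 and 164.5, then 104, 86.3 and 168.5, then 131 and 154. On 229741_at they were 48.4, 87.6 and 33.1, then 103, 132 and 48.1, then 55.0 and 57.35. On 231829_at they were 52.8, 7.29 and 49.8, then 82.1, 8.62 and 50.2, then 62.0 and 38.1. On the last, both arrays numbered 2 lay far below the rest, whereas on 229741_at they were the highest of their groups.

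The correlation between MAVS probe sets over the 8 arrays ran from -0.850 (226495_at with 229741_at) to 0.721 (220305_at with 226495_at). At 6 h the differences were 0.17 ± 0.35, -0.055 ± 0.36, 0.74 ± 0.50 and 0.30 ± 0.93 (SE, in the order above, limma adjusted p = 1.0 for each). At 12 h they were 0.51 ± 0.395, 0.26 ± 0.41, 0.11 ± 0.56 and 0.86 ± 1.04, and 0.16, 0.06, 0.49 and -0.08 without the arrays numbered 2. The largest of them, on 231829_at, thus rested on untreated replicate 2.

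**Figure D3:**
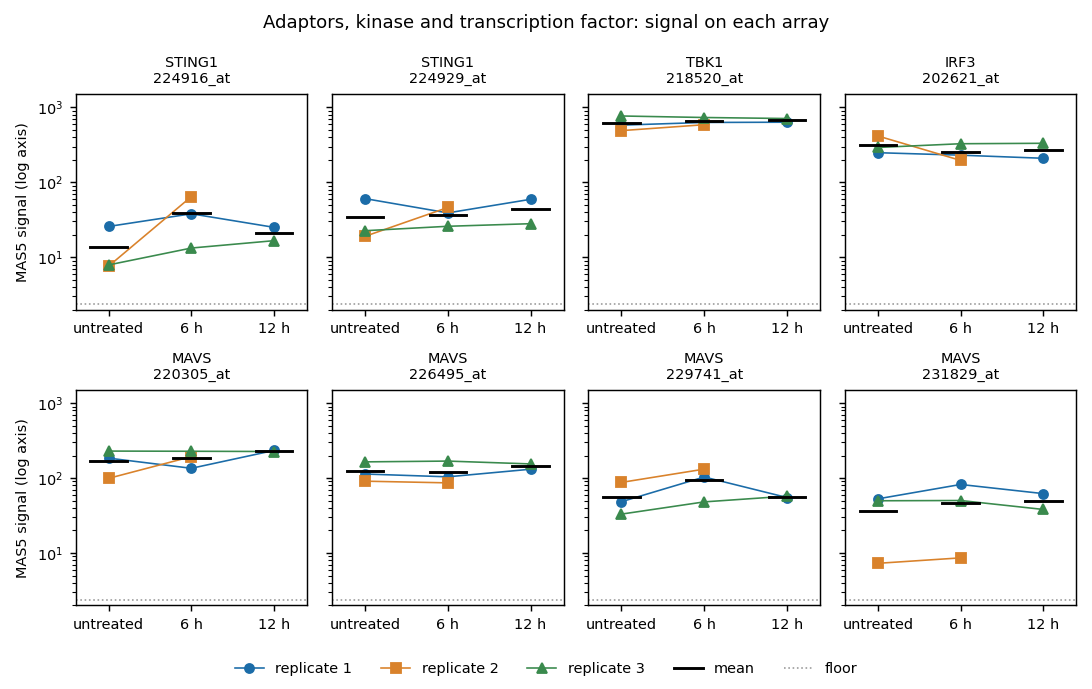
MAS5 signal (log axis) of the probe sets of STING1, TBK1, IRF3 and MAVS on each array, by time. Coloured lines join arrays of the same number, black bars are group means and the dotted line is the floor of 2.385. TBK1 is the flattest, between 489 and 766 over all 8 arrays, and MAVS 231829_at is low on both arrays numbered 2.

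TBK1, the kinase shared by the STING1 and MAVS routes, was the steadiest of the members with a probe set of their own. Its signals on 218520_at were 579, 489 and 766 in untreated cells, 628, 586 and 731.5 at 6 h and 633 and 709 at 12 h. The highest array was 1.57 times the lowest, against 36.4 times for AIM2. The AIM2 probe set lay near the filter, at a mean log2 signal of 4.72 against a cut of 4.216, and that of TBK1 far above it, at 9.31. The part of brightness in these ranges was not tested. The TBK1 groups overlapped, the 6 h difference was 0.105 ± 0.25 (SE, 95% interval -0.43 to 0.635, limma adjusted p = 1.0) and the 12 h difference 0.16 ± 0.275.

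IRF3, the transcription factor that TBK1 phosphorylates, is controlled mainly by that step rather than by its RNA level. Its signals on 202621_at were 248, 415 and 291 in untreated cells, 230.0, 196 and 327 at 6 h and 209 and 331 at 12 h. The untreated array numbered 2 was high and the 6 h array numbered 2 low. The 6 h difference was -0.34 ± 0.315 (SE, 95% interval -1.02 to 0.34, limma adjusted p = 1.0), and 0.03 without those arrays. At 12 h it was -0.24 ± 0.35, and -0.03 without them.

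TREX1 could be read only together with ATRIP, a gene of the DNA damage response whose transcripts the same probe sets match. On 34689_at the signals were 119, 118 and 131 in untreated cells, 126, 136 and 121 at 6 h and 114 and 113 at 12 h. This narrow range of 1.20 times between lowest and highest array was not shared by the other 2 probe sets, which spanned 4.55 and 3.80 times. Differences on the 3 probe sets were 0.055 ± 0.30, -0.73 ± 0.50 and -0.29 ± 0.64 (SE) at 6 h and -0.11 ± 0.33, 0.08 ± 0.56 and -0.004 ± 0.71 at 12 h. The 6 h differences of the last 2 came from number 2, where they were -2.19 and -1.17, against -0.10 and 0.10, and 0.18 and 0.12, within numbers 1 and 3. With limma, 0 of the 3 passed at 6 h, and 0% of all 27306 probe sets did. How much of each signal belongs to either gene is not known from these data.

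**Figure D4:**
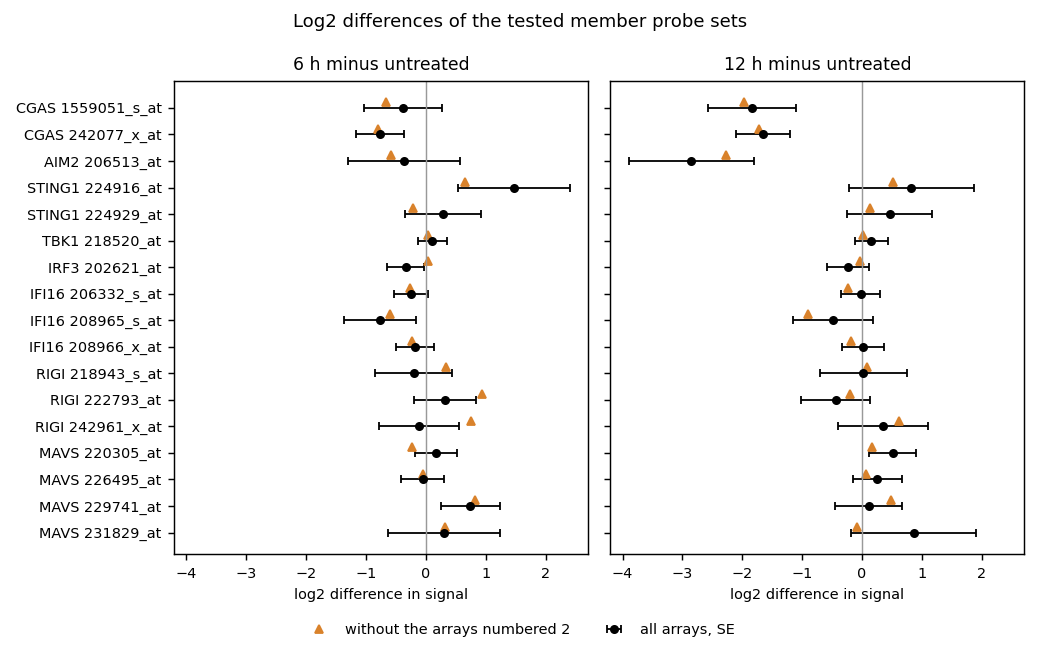
Log2 difference in signal (x axis) of the 17 tested member probe sets (y axis) at 6 h and at 12 h against untreated. Black points with bars are the estimate and its SE with all arrays, and orange triangles leave out the arrays numbered 2. At 12 h the 2 CGAS probe sets and AIM2 lie at -1.84, -1.65 and -2.85, and the others between -0.49 and 0.86.

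Over the 17 tested probe sets, 10 were above 0 and 7 below at 12 h, with a median log2 difference of 0.02, against 50.4% above 0 and a median of 0.004 over all 27306. At 6 h 7 were above 0 and 10 below (median -0.12, against 51.2% above and 0.009 over all). For 12 h against 6 h 11 were above and 6 below (median 0.18, against 49.3% above and -0.006 over all). The 3 comparisons share arrays.

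Genes that act with the sensors were described through 7 lists of 146 genes, of which 137 had a probe set of their own and 104 were tested by the brightest one. With limma, 0 of these 104 passed in any of the 3 comparisons. Of all 27306 probe sets 0% did, so nothing is read from this about the lists. Around CGAS and STING1, 15 of 20 accessory genes were above 0 at 12 h (median 0.12, against 0.08 for all 12063 genes taken by their brightest probe set), and 10 of 20 at 6 h. Of all those genes 59.9% were above 0 at 12 h and 53.0% at 6 h. With the replicate block the list's 12 h median was 0.07. The values over all genes are from the fit without that block, here and for the lists below. ENPP1, which degrades the CGAS product outside the cell, averaged 213 ± 11.7 (SD, n = 3) in untreated cells, 158 ± 25.9 (n = 3) at 6 h and 179 ± 8.05 (n = 2) at 12 h, with differences of -0.44 ± 0.28 and -0.25 ± 0.31 (SE). SURF4, a cargo receptor of the early secretory route, averaged 829 ± 83.35, 874 ± 143 and 1103 ± 17.9, and the ubiquitin ligase TRIM32 108 ± 61.7, 166 ± 28.6 and 138 ± 35.5. The low untreated mean of TRIM32 came from replicate 2, at 41.1 against 119 and 163, and within number 3 its signal was 163 untreated and 139 at 6 h. All 6 h and 12 h arrays lay below all untreated ones for ENPP1. Of all probe sets tested this held for 1.63% at 6 h and, taken separately, for 6.54% at 12 h. ENPP1 was also named because its p was among the smallest of its list, so nothing is read from this order.

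Around RIGI, IFIH1 and MAVS, 16 of 20 accessory genes were above 0 at 12 h (median 0.26) and 15 of 20 at 6 h (median 0.11, against 0.02 for all genes), beside 59.9% and 53.0% of all genes. RNF135, the ubiquitin ligase Riplet that modifies RIGI, averaged 68.6 ± 11.2 (SD, n = 3) in untreated cells, 120 ± 55.0 (n = 3) at 6 h and 82.3 ± 6.91 (n = 2) at 12 h, with 182 on 6 h replicate 1. The helicase-like protein ZNFX1 differed by 0.57 ± 0.41 (SE) at 12 h and the deubiquitinase CYLD by 0.39 ± 0.295 at 6 h. With the replicate block the 12 h median of the list was 0.15.

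Of 14 kinases and transcription factors downstream, 9 were above 0 at 6 h (median 0.215) and 9 at 12 h (median 0.16). Of all genes 53.0% were above 0 at 6 h and 59.9% at 12 h, shares that also stand beside the lists below. With the replicate block the 12 h median of this list was 0.24. IKBKG, the regulatory subunit NEMO, had signals of 148, 141 and 155 in untreated cells, 133 to 151 at 6 h and 182 and 202 at 12 h. Its difference at 12 h was 0.37 ± 0.31 (SE). RELA, an NF-kappaB subunit, differed by 0.50 ± 0.38 at 12 h, and IRF5, an interferon regulatory factor, had 6 h signals of 43.6, 127 and 14.3.

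The inflammasome list, the partners of AIM2, was mostly dim, with 7 of 16 genes tested, 4 above 0 at 6 h (median 0.14) and 3 at 12 h (median -0.12). GSDMD, the pore-forming gasdermin, averaged 22.2 ± 14.3 (SD, n = 3) in untreated cells and 43.5 ± 16.5 (n = 2) at 12 h. Untreated replicate 2 was its lowest array, at 7.21, within number 3 the signal went from 35.7 to 31.8, and the replicate block took the log2 difference from 1.20 to 0.76. CASP1, the inflammasome protease, had 166 on untreated replicate 2 and 15.4 and 23.1 on the other untreated arrays. CARD8, an inflammasome sensor, differed by -0.21 ± 0.39 (SE) at 12 h.

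Genes that degrade or edit nucleic acids had 6 of 15 above 0 at 12 h (median -0.13) and 4 of 15 at 6 h (median -0.06). ADAR, which edits double-stranded RNA, averaged 1210 ± 213 (SD, n = 3), 1393 ± 231 (n = 3) and 1540 ± 90.4 (n = 2), a 12 h difference of 0.36 ± 0.26 (SE). The cytidine deaminases APOBEC3C and APOBEC3F, which can share sequence with relatives, differed by -0.85 ± 0.58 at 6 h and -1.37 ± 1.01 at 12 h. Each rested on 1 array, since APOBEC3C had 6 h signals of 93.5, 17.99 and 107 and APOBEC3F was 5.11 on 12 h replicate 1 but 20.9 on replicate 3, near its 21.8 on untreated replicate 3. Neither passed.

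No interferon output gene passed the test in either direction, but 0% of all 27306 probe sets did, so nothing is read from this. Of 29 on the list 16 were tested, 6 above 0 at 6 h (median -0.06) and 7 at 12 h (median -0.13, against 0.08 for all genes). The list was not matched to all genes in brightness, and the 12 h median over all probe sets varied with brightness. IFIT1, an interferon-induced RNA-binding protein, had signals of 136, 84.2 and 121 in untreated cells, 106, 25.4 and 104.5 at 6 h and 96.9 and 86.7 at 12 h. OASL, of the oligoadenylate synthetase family, averaged 40.9 ± 28.4 (SD, n = 3), 37.8 ± 26.0 (n = 3) and 16.3 ± 4.95 (n = 2), with 73.2 on untreated replicate 2. OAS3 differed by 1.21 ± 1.00 (SE) at 6 h, with a signal of 3.32 on untreated replicate 1 and 77.9 on untreated replicate 2.

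Endosomal and other sensors had 8 of 12 above 0 at 12 h (median 0.195), against 59.9% above 0 and a median of 0.08 for all genes. At 6 h 6 of 12 were above 0 (median 0.05). With the replicate block the list's 12 h median was 0.05, while the values for all genes are without that block. EIF2AK2, the kinase PKR that binds double-stranded RNA, averaged 312 ± 29.1 (SD, n = 3), 362 ± 68.4 (n = 3) and 401.5 ± 19.9 (n = 2), a 12 h difference of 0.37 ± 0.28 (SE). MYD88, the adaptor of endosomal toll-like receptors, differed by 0.47 ± 0.32 at 12 h, and POLR3E, a subunit of RNA polymerase III, by 0.31 ± 0.27 at 6 h.

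**Figure D5:**
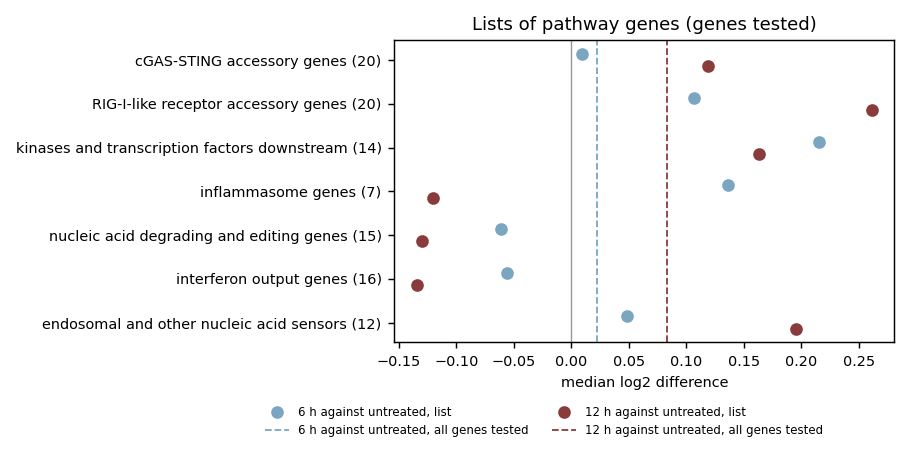
Median log2 difference (x axis) of 7 lists of pathway genes (y axis, genes tested in brackets) at 6 h and 12 h against untreated, as points, with the median of all 12063 genes as dashed lines. The 12 h medians of the inflammasome, nucleic acid degrading and interferon output lists lie at -0.12, -0.13 and -0.13, left of the line at 0.08. The 12 h median over all probe sets varied with brightness, from -0.27 with no filter to 0.12 above the 75th percentile of mean signal. The lists were not matched for brightness, so nothing is read from their side of the line. Of all 27306 probe sets 0% passed the test, and 0 genes of any list did.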

How the data were processed

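RNA was measured on 8 Affymetrix arrays, 1 per sample. The authors deposited linear intensity values, 1 for each probe set, made with MAS5 per the submitters' processing notes. Its version is not given in the sources used here. The number of arrays limits the precision, and nothing says that replicates are separate cultures, so the spread that the p-values rest on may be only technical. The 54675 probe sets included 62 controls, which were left out. A platform annotation, with symbols updated through RefSeq, gave 1 gene for 41091, several for 1801 and none for 11721.

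Signals were floored, log2-transformed and tested with limma 3.58.1 under R 4.3.3 (lmFit, eBayes with a variance trend, 3 groups in 1 fit of 8 arrays), two-sided, Benjamini-Hochberg over 27306 probe sets. The fit was on probe sets, since members are probe sets. Exact permutation tests of single values were not used, since with 3 against 3 arrays they cannot go below 0.10, or 0.20 with 2 against 3.

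The members and gene lists were chosen with earlier results of these data known. Named genes are all members, the 5 genes most correlated with AIM2 and 3 per list with the smallest p in either comparison with untreated. Same-numbered arrays deviated together (correlation across probe sets of deviations from group means 0.197 to 0.624 in 7 pairs, -0.531 to 0.249 in 14 others), and the numbers were treated as pairs. Deviations within a group sum to 0, which builds in a part of this contrast. Marker lists of other cell types are in the text for osteoblast lineage and myeloid cells. Of the lymphoid, endothelial and epithelial lists, 1 of 6, 1 of 5 and 3 of 5 genes passed the filter. The scripts were tested on simulated data.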

Additional observations from a re-analysis of the deposited data

How the results depend on the processing

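The number of probe sets that passed stayed at 0 in each of the 3 comparisons under all 22 alternatives, the replicate block (0), array weights and each array left out in turn (0 to 0) among them. The smallest adjusted p was 0.217, for 12 h against untreated without 12 h replicate 3, which leaves 1 array in that group and takes its spread from the others. The replicate block changed no call. At an unadjusted p under 0.05 it gave 1201, 791 and 827 probe sets in 6 h against untreated, 12 h against untreated and 12 h against 6 h. Of the 21 member probe sets, 7, 8 and 9 kept their sign, in the same order, in the 21 alternatives on single probe sets. Those that change only the filter, the variance trend or arrays outside a comparison cannot turn a sign, so the counts rest on the others. The averaging of a gene's probe sets is left out of these counts. Under that averaging CGAS differed by -0.23, -0.999 and -0.77 and RIGI by -0.002, -0.02 and -0.02. For 12 h against untreated the AIM2 difference ran from -3.98 to -1.05, CGAS 242077_x_at from -1.81 to -1.07 and CGAS 1559051_s_at from -3.32 to -0.37, with the last value when 12 h replicate 1 was left out. The AIM2 value of -1.05 came from a pseudocount of 32. At 6 h AIM2 turned to 0.20 without untreated replicate 2. A 12 h array numbered 2 was not analysed here, and dim probe sets such as those of IFIH1 lie where the arrays numbered 2 differ most.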
